A study of Saccharomyces cerevisiae with 18 samples.

Results

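The amylase-producing strain AAC was compared with the strain NC, which makes no amylase, in aerobic batch culture, by the titles of the arrays. The comparison took 6 of the 18 arrays of the series, 3 of AAC and 3 of NC, and all 5498 probe sets with a single S. cerevisiae gene (5449 genes). Both strains were built on CEN. PK 530-1C, and both carried a plasmid named in the labels as 2 μm POT1. In AAC the plasmid held amylase behind the alpha factor leader under the TPI1 promoter (pTPI1-alpha factor leader amylase), and in NC it held the TPI1 promoter alone. Cultures of 500 ml SD-SCAA medium at 30 °C were sampled in the early glucose phase, at an optical density of about 1. The third strain, AAP, made less amylase and had the TEF1 promoter in its place, and all 3 strains were also grown without air. Whether a strain is a single clone is not stated in the labels, and the 3 arrays of a group are called biological replicates.

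A secreted protein with the alpha factor leader enters the endoplasmic reticulum (ER), where the chaperone Kar2 and the disulfide enzymes Pdi1 and Ero1 help it fold. It then passes the Golgi, where the protease Kex2 cuts off the leader. Misfolded protein in the ER activates Ire1, which splices the HAC1 message and so turns on chaperone genes, while slower growth and stress lower the ribosomal genes and raise the general stress genes of budding yeast.

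Values are log2 signals, a difference of 1 is 2-fold, and a change was called at an adjusted p under 0.05 in limma fitted to all 18 arrays. The 95th percentile of the fission yeast probe sets, 5.58 over all arrays, served as the background level, which 5019 probe sets exceeded on average. The 3 NC arrays correlated with each other at 0.998 to 0.999, the 3 AAC arrays at 0.994 to 0.998, and NC with AAC arrays at 0.981 to 0.988, over probe sets. The array labelled AAP aerobic replicate 3 stood apart from its group: it correlated with the AAC aerobic arrays at 0.992 to 0.995, and with AAP aerobic replicates 1 and 2 at 0.977 to 0.979. It is no part of the comparison, but it enters the spread that all groups share. Counts are therefore also given without it. Fits that leave out a compared array keep it, so a call lost there also rests on this wider spread.

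The markers of strain and mating type were read first. For the strain, TPI1 was taken as deleted in the host and fission yeast tpi1 as carried on the plasmid. TPI1, the host's triose phosphate isomerase gene, lay under the background level on all 6 arrays, at 5.34, 5.39 and 5.37 in NC and at 5.30, 5.41 and 5.30 in AAC. The fission yeast tpi1 probe set, the enzyme's gene in that species, read 6.17, 6.35 and 6.20 in NC and 9.32, 9.41 and 8.97 in AAC. It read 12.42 and 12.38 on AAP aerobic replicates 1 and 2, and 9.24 on the array labelled AAP aerobic replicate 3. DET1, which lies next to TPI1 in gene order, read 11.93 to 12.02 in NC and 11.19 to 11.40 in AAC, against 7.80 and 7.61 on AAP aerobic replicates 1 and 2 and 11.28 on the array labelled replicate 3. The AAC arrays were all below the NC arrays for DET1, but the difference of -0.68 was not called with all arrays (adjusted p 0.472), and was called with the array labelled AAP aerobic replicate 3 left out (adjusted p 7.99e-06).

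Genes that only 1 mating type expresses were read next. STE2, the alpha-factor receptor of a cells, stood at 9.69 to 9.85 in NC and 9.43 to 9.53 in AAC. The alpha-factor genes MF(ALPHA)1 and MF(ALPHA)2, which alpha cells express, were under the background level on all 6 arrays (5.13 to 5.28), with differences of 0.01 and 0.04. The other alpha-specific genes read, STE3 and SAG1, differed by 0.15 and 0.09. None of these 4 was called with air, and 2 were called higher without it. Of 7 a-specific genes, 3 were higher in AAC and 2 lower. MFA1, which encodes a-factor, read 8.35, 8.33 and 8.34 in NC and 9.26, 9.25 and 9.55 in AAC, a 2.02-fold rise (adjusted p 0.0160) that was not called without NC replicate 2 or without AAC replicate 3. AGA2, an agglutinin subunit, rose 1.82-fold and its partner AGA1 rose 1.62-fold (adjusted p 0.00445 and 0.00715), while STE2 and MFA2 fell by 0.29 and 0.27. STE2 was called with all arrays and without AAC replicate 2, and not without any other of the 6 arrays. The host marker gene URA3 fell by 0.46 (adjusted p 0.00822), with AAC at 7.83 to 7.93 below NC at 8.33 to 8.36, whereas HIS3 and LEU2 were not called.

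In all, 1067 probe sets were called (19.4% of those tested), 518 higher in AAC (9.42%) and 549 lower (9.99%). The counts in the gene lists below are to be read against these shares. Differences were mostly small: 36 of the calls upward (0.655% of probe sets) and 3 downward (0.0546%) reached 2-fold, and the median over all probe sets was -0.02. The NC and AAC arrays did not overlap for 51.7% of the probe sets, with AAC above for 20.6% and below for 31.1%. With the array labelled AAP aerobic replicate 3 left out, 1650 were called (30.0%), 714 higher (13.0%) and 936 lower. With the replicate number as a block 447 were higher (8.13%) and 424 lower (7.71%). The count of calls was 554, 559 and 599 without NC replicates 1, 2 and 3, and 687 and 580 without AAC replicates 1 and 3. List counts moved too: of 106 counts, 24 to 43 changed by over 1.5 times without 1 of the 6 arrays, the most without NC replicate 1, so ranges over these removals are given for the lists described at length. RNA came from whole cultures and signals are relative to each array, so fewer cells with a transcript and less of it in each cell cannot be told apart.

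The 15 largest rises among called genes were called whichever of the 6 arrays was left out. HES1, an oxysterol-binding protein gene, read 5.50, 5.58 and 5.52 in NC, at the background level, and 9.24, 9.19 and 9.27 in AAC, at least 12.6-fold higher (adjusted p 0.00226). Such a bound takes as its floor each array's own background level, which lay between 5.54 and 5.59. It led every other gene, and AAP aerobic replicates 1 and 2 read 5.55 and 5.54. Next came YBL100W-A, a retrotransposon gene whose probe set matches similar copies (6.31-fold), the secreted acid phosphatase PHO5 (4.78-fold) and the secreted wall glycoprotein YGP1 (3.99-fold). The high-affinity phosphate transporter PHO84 (3.73-fold), the alternative glucan synthase subunit GSC2 (3.63-fold) and the ER membrane protein YET2 (3.35-fold) followed. YDL124W, an NADPH-dependent reductase, rose 2.88-fold, YRO2, a membrane protein, 2.79-fold, and SNZ1, of vitamin B6 synthesis, 2.77-fold. The remaining 5 were TDH1, HSP12, RTC3, NQM1 and DDR48, at 2.44-fold to 2.70-fold.

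Among called genes DAK2, a dihydroxyacetone kinase, fell furthest. It read 7.36, 7.49 and 7.47 in NC and 5.17, 5.18 and 5.16 in AAC, under the background level, at least 3.69-fold lower (adjusted p 8.42e-11). All 3 AAP aerobic arrays were as low, at 5.11 to 5.18. ZNF1 and AGP3, the nearest measured genes on either side, were under the background level in both strains, and nothing can be read from them. ZPS1, a zinc-regulated wall protein, fell 2.95-fold (adjusted p 0.0225), with NC at 8.95 to 9.44 and AAC at 7.34 to 7.88. TIR3, a wall mannoprotein known from anaerobic cells, fell by 1.07 on the log2 scale (adjusted p 0.0243), with NC at 6.70 to 6.87 and AAC at 5.60 to 5.83. ZPS1 was not called without NC replicate 2 or 3 or AAC replicate 2 or 3, and TIR3 not without NC replicate 1, 2 or 3 or AAC replicate 2 or 3.

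The other 12 of the 15 largest falls among called genes lay between 0.52 and 0.66 on the log2 scale. The GTPase RAS1, the uracil phosphoribosyltransferase FUR1, the ribose 5-phosphate isomerase RKI1 and the large-subunit assembly factor ALB1 fell by 0.58, 0.56, 0.54 and 0.53, and with DAK2 they were the 5 of the 15 that were called whichever of the 6 arrays was left out. The others were the nucleolar or assembly genes NOP13, NSR1 and RPF2, the helicase gene DBP2, the glucose transporter HXT4, the adenine deaminase AAH1, INA1 and the zinc transporter ZRT1. Each of these lost the call without at least 1 of the 6 arrays. With the replicate number as a block DBP2, HXT4 and NSR1 were not called (adjusted p 0.0602, 0.0756 and 0.0535).

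**Figure D1:**
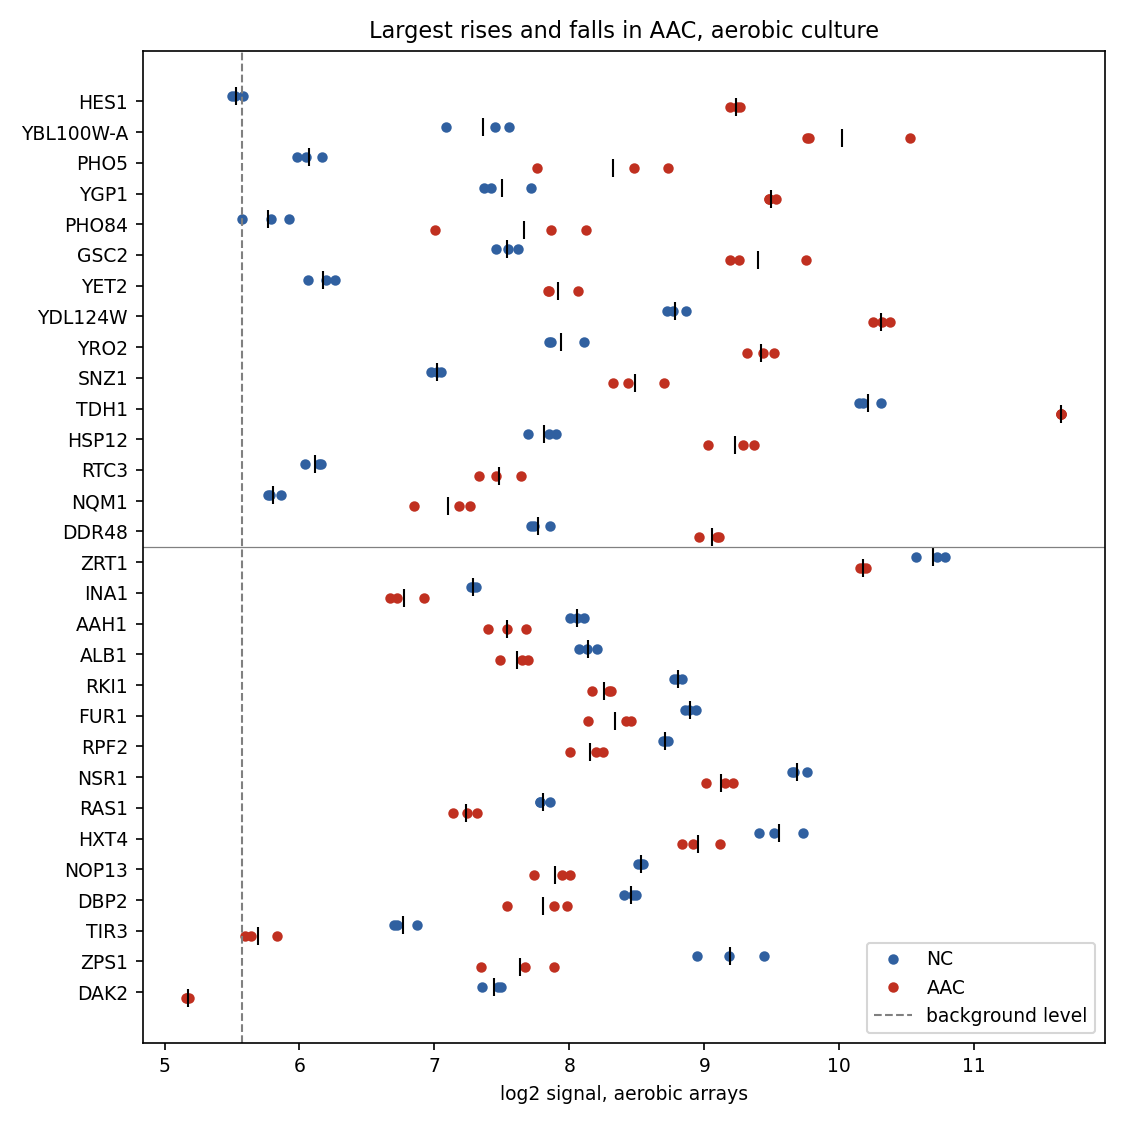
Log2 signal (horizontal axis) of the 15 largest rises, above the line, and the 15 largest falls, below it, on the 3 NC and 3 AAC aerobic arrays. Points are arrays, ticks the means of 3 and the dashed line the background level of 5.58. HES1 in NC and DAK2 in AAC lie at or under that level. Only called genes whose groups do not overlap were eligible for the figure.

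Several genes of protein folding in the ER were higher in AAC, and the sensor gene IRE1 and its target message HAC1 were not called. Of 7 genes of disulfide formation, 4 were called higher and none lower (3 to 4 without each array, median difference 0.42, against -0.02 over all probe sets). ERO1, the oxidase that recharges Pdi1, read 8.51, 8.62 and 8.49 in NC and 9.44, 9.65 and 9.73 in AAC, a 2.09-fold rise (adjusted p 0.00256). PDI1 read 10.69, 10.80 and 10.61 in NC and 11.09, 11.14 and 11.22 in AAC (1.37-fold, adjusted p 0.000605). The AAC arrays were above all NC arrays for both, as for 20.6% of all probe sets. MPD1, a Pdi1 relative, rose 1.66-fold.

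Of 12 ER chaperone genes 6 were higher and none lower (median 0.28), 5 with the replicate block and 4 to 6 without each array. KAR2, the ER Hsp70, read 10.57, 10.56 and 10.58 in NC and 11.26, 11.31 and 11.44 in AAC, 1.71-fold higher (adjusted p 0.000760). Its exchange factors SIL1 and LHS1 rose 1.78-fold and 1.72-fold, and its partner SCJ1 rose too, by 0.45 on the log2 scale. On AAP aerobic replicates 1 and 2, KAR2 read 11.18 and 10.72, and ERO1 9.31 and 8.56, so replicate 1 was near the AAC level and replicate 2 near that of NC.

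HAC1 read 10.18 to 10.31 in NC and 10.41 to 10.47 in AAC, and IRE1 6.50 to 6.56 and 6.45 to 6.64. Neither was called (adjusted p 0.265 and 0.896). The array measures total HAC1 RNA, not its splicing. Of 23 genes of the sensor and of ER-associated degradation 3 were higher and none lower (median -0.01), against 6 and 3 with the array labelled AAP aerobic replicate 3 left out. Without each of the 6 arrays 1 to 4 were higher and none lower. DER1, a degradation channel protein, rose 1.34-fold (adjusted p 0.0130).

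Of 25 translocation genes 1 was higher and 4 were lower (median -0.11). Without each of the 6 arrays 1 was higher and 1 to 2 were lower. The gene that was higher is SRP21, which lies in the stretch of chromosome XI described later, and among the lower ones SRP14, of the signal recognition particle, fell by 0.23. SEC61, the translocon channel, differed by 0.23 and was not called (adjusted p 0.349). For N-glycan synthesis 3 of 33 genes were higher and 2 lower, beside 9.42% and 9.99% of all probe sets. Without each array these were 2 to 3 and 0 to 1. The lower count was 1 with the replicate block and 5 with the array labelled AAP aerobic replicate 3 left out. The dolichol kinase SEC59 and the glucosamine enzyme GFA1 were higher by 0.34 and 0.44. Of 6 O-mannosyltransferases 2 were higher (1 to 3 without each array), and PMT2 rose by 0.41 (adjusted p 0.0101). ER to Golgi transport had 2 of 39 genes higher and 1 lower, beside 9.42% and 9.99% of all probe sets. Without each of the 6 arrays none was higher and 0 to 1 lower. The counts were 1 and 1 with the replicate block, and 5 and 1 with the array labelled AAP aerobic replicate 3 left out. In the late secretory pathway none of 21 was called.

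Among the proteases, KEX2 and KEX1, which process the alpha factor precursor, differed by -0.06 and -0.05 and were not called. STE13, the dipeptidyl aminopeptidase of the same processing, rose 1.15-fold. YPS1, a surface yapsin that cuts at basic residues, read 7.29, 7.23 and 7.28 in NC and 8.22, 8.29 and 8.37 in AAC (2.04-fold, adjusted p 0.000174). The yapsin YPS3 rose 1.79-fold, and the vacuolar proteases PRB1 and PEP4 rose 1.73-fold and 1.33-fold. In all, 7 of these 18 genes were higher and none lower (6 to 8 higher without each array, median 0.21).

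**Figure D2:**
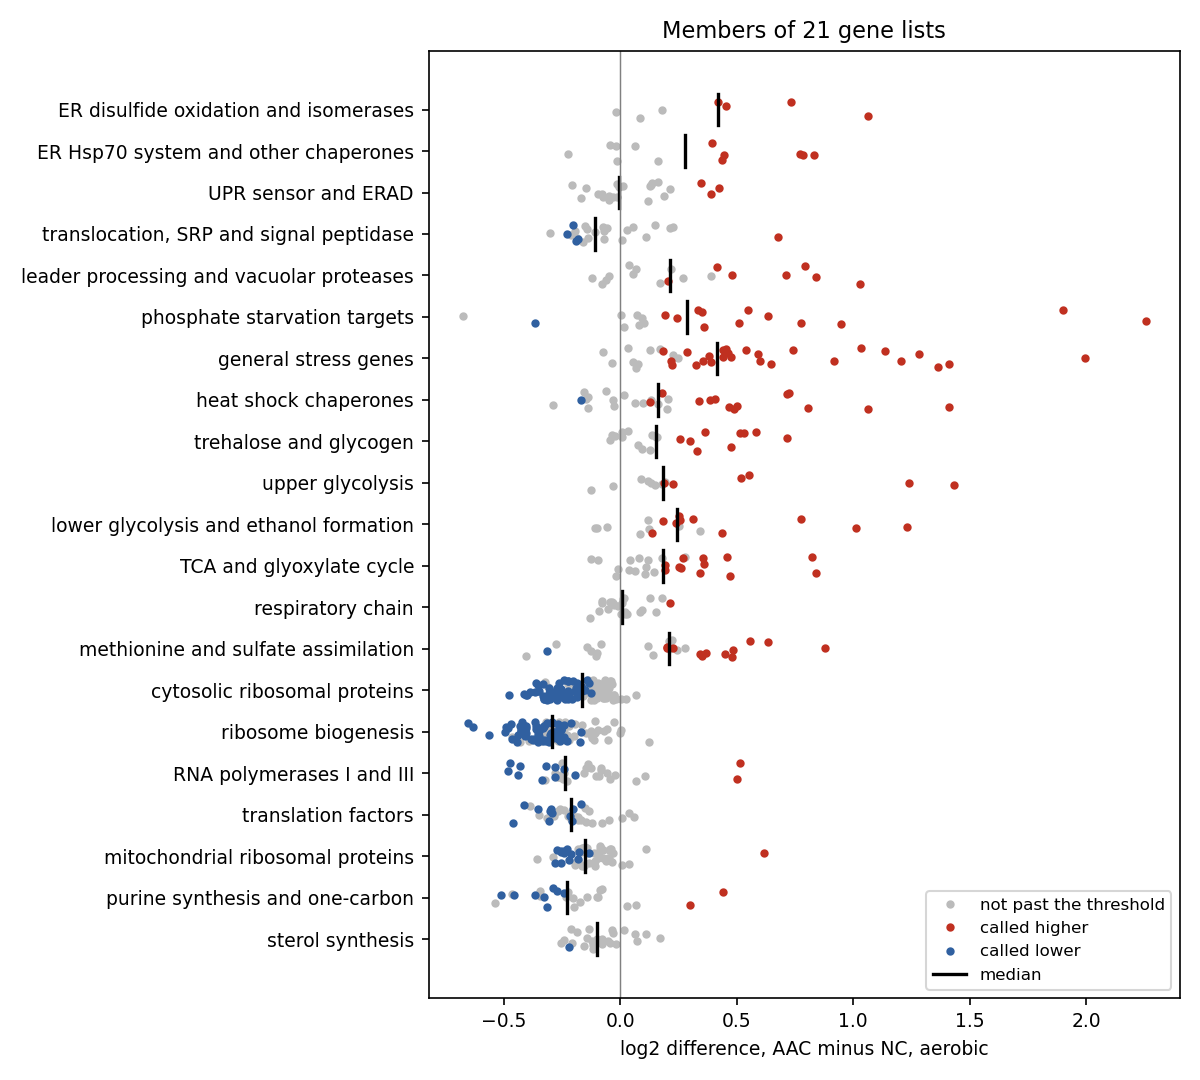
Log2 difference between AAC and NC in aerobic culture (horizontal axis) for each member of 21 gene lists. Each point is a gene, red if called higher, blue if called lower and grey if not called, and the bar is the list's median. The medians run from -0.30 for ribosome biogenesis to 0.42 for the disulfide and the general stress lists.

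Of 20 targets of phosphate starvation 12 were higher and 1 lower (median 0.29). Without each of the 6 arrays 5 to 12 were higher, with 5 without AAC replicate 3, and none was lower. PHO5 read 6.05, 6.17 and 5.98 in NC and 8.48, 7.76 and 8.73 in AAC (adjusted p 0.00291). PHO84 read 5.79, 5.92 and 5.58 in NC and 7.86, 7.01 and 8.12 in AAC (adjusted p 0.00269). AAC replicate 2 was the lowest of the AAC arrays for both and still lay above all NC arrays.

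The acid phosphatase PHO11 rose 1.93-fold and the sodium-coupled transporter PHO89 1.71-fold, and SPL2 and the polyphosphate gene VTC3 rose 1.55-fold and 1.46-fold. PHO3, a constitutive acid phosphatase that thiamine represses, fell by 0.37 (adjusted p 0.0332), and was not called without any 1 of the 6 arrays. VTC3 was not called without AAC replicate 3, PHO11 not without that array or NC replicate 1 or 3, and PHO89 and SPL2 only with all arrays or without AAC replicate 2. Of 14 phosphate signalling genes none was higher and 1 was lower. The activator PHO4 and the kinase inhibitor PHO81 differed by -0.19 and 0.14 and were not called (adjusted p 0.204 and 0.243). AAP aerobic replicates 1 and 2 read 6.03 and 6.89 for PHO5, so replicate 2 was above all NC arrays.

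Most of the general stress genes rose. Of 36, 26 were higher and none lower (median 0.42). Without each of the 6 arrays 22 to 26 were higher, and the counts were 29 and 0 with the array labelled AAP aerobic replicate 3 left out. HSP12, a small membrane-bound stress protein, read 7.90, 7.85 and 7.69 in NC and 9.37, 9.29 and 9.03 in AAC (2.66-fold, adjusted p 3.72e-05). RTC3 rose 2.57-fold and DDR48, named for DNA damage, 2.44-fold. On AAP aerobic replicates 1 and 2 HSP12 read 8.49 and 8.71, between the groups.

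Of 29 heat shock chaperones 13 were higher and 1 lower (none lower with the replicate block, 3 with the array labelled AAP aerobic replicate 3 left out). Without each of the 6 arrays 9 to 12 were higher and none lower. HSP42, a small heat shock protein, rose 1.65-fold, the mitochondrial disaggregase HSP78 1.75-fold, HSP30 2.09-fold and HSP104, the cytosolic disaggregase, 1.41-fold. The cytosolic chaperones HSP82 and SSA1 rose less, 1.33-fold and 1.26-fold, and SSA1 was not called without NC replicate 2 or 3 or AAC replicate 2. In peroxide and superoxide defence, 2 of 26 were higher (1 with the replicate block), beside 9.42% of all probe sets. With the array labelled AAP aerobic replicate 3 left out 8 were higher, beside 13.0%. The cytosolic catalase CTT1, also a general stress gene, rose at least 1.26-fold from an NC level under the background.

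Several less abundant isozymes of glycolysis rose. Of 14 genes of upper glycolysis 6 were higher and none lower (median 0.18), and of 18 of lower glycolysis and ethanol formation 10 and none (median 0.24). Without each of the 6 arrays these were 3 to 5 and 6 to 11. GLK1, the glucokinase, read 8.00, 7.98 and 7.94 in NC and 9.33, 9.21 and 9.09 in AAC (2.36-fold, adjusted p 2.01e-06). TDH1 read 10.18, 10.31 and 10.15 in NC and 11.64 on each AAC array (2.70-fold, adjusted p 0.00116), and its highly expressed relative TDH3 differed by 0.09 and was not called. ENO1 rose 2.02-fold with AAC at 11.75 to 11.83 and NC at 10.76 to 10.79, whereas the enolase ENO2 differed by 0.12 and was not called (adjusted p 0.0592).

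GPM2, a relative of phosphoglycerate mutase, rose 2.35-fold. GPM1, the active mutase, rose 1.35-fold and is the first gene of the chromosome XI stretch. The hexokinase HXK1 rose 1.47-fold, a call that was lost without any NC replicate or AAC replicate 1, and HXK2 was not called. Of 22 hexose transport and glucose signalling genes 3 were higher and 1 lower (2 and none with the replicate block), beside 9.42% and 9.99% of all probe sets. The low-affinity transporter HXT1 rose 1.43-fold (adjusted p 0.00911).

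In the glycerol branch 6 of 13 genes were higher and DAK2 was lower, the same counts without each of the 6 arrays. GPD1, which makes glycerol 3-phosphate, read 9.36, 9.52 and 9.38 in NC and 10.42, 10.28 and 10.26 in AAC (1.87-fold, adjusted p 5.12e-05). The phosphatases GPP2 and GPP1 rose 2.31-fold and 1.29-fold, and GCY1, which oxidises glycerol to dihydroxyacetone, 1.68-fold. The other dihydroxyacetone kinase, DAK1, differed by 0.14 and was not called (adjusted p 0.0764). Of 21 trehalose and glycogen genes 9 were higher (6 to 7 without each array) and none lower, among them the glycogen branching enzyme GLC3 (1.50-fold), the trehalose synthase subunit TSL1 (1.44-fold) and the trehalase NTH1 (1.43-fold), and also PGM1, which lies in the chromosome XI stretch.

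Of 26 genes of the TCA and glyoxylate cycles 12 were higher and none lower (median 0.18), and 5 to 8 were higher without each array, with 5 without NC replicate 2 or 3. The largest rises were SDH3 and SDH1, subunits of succinate dehydrogenase in the chromosome XI stretch, at 1.79-fold and 1.77-fold, while the subunit gene SDH2 lies elsewhere and differed by 0.18 (adjusted p 0.330). Of 23 respiratory chain genes 1 was higher (3 with the array labelled AAP aerobic replicate 3 left out) and none lower (median 0.01), and of 17 genes of ATP synthase and its regulators 1, STF2, which stabilises the synthase inhibitor (2.30-fold).

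Many genes that build or make up ribosomes were lower in AAC. Of 128 cytosolic ribosomal protein genes 59 were lower and none higher (median -0.17), and of 120 ribosome biogenesis genes 67 and none (median -0.30). With the array labelled AAP aerobic replicate 3 left out, these counts were 68 and 101, and with the replicate block 52 and 51. Without each of the 6 arrays they were 24 to 50 and 33 to 45, the fewest without NC replicate 2 for the first and without NC replicate 2 or AAC replicate 3 for the second. Both lists were drawn by name pattern, so they hold a few genes of other function, such as RPP1 of RNase P. NOP4, a large-subunit assembly factor, read 8.48, 8.44 and 8.34 in NC and 7.89, 8.02 and 8.06 in AAC, and fell by 0.43 (adjusted p 0.00160). KRR1, of the small subunit, fell by 0.47 (adjusted p 0.00375), with NC at 7.87 to 8.00 and AAC at 7.40 to 7.51. RPL26A, a ribosomal protein gene, fell by 0.30 (adjusted p 0.000760), with NC at 10.93 to 11.01 and AAC at 10.64 to 10.69, and RPS9B by 0.37. The groups overlapped for none of these 4 genes, and AAC lay below NC in this way for 31.1% of all probe sets. No single fall in ribosomal protein genes passed 0.48.

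RNA polymerases I and III had 10 of 34 genes lower, 2 to 6 without each array and 16 with the array labelled AAP aerobic replicate 3 left out. The polymerase III subunit RPC31 fell by 0.43 (adjusted p 0.00126), and the 2 genes that were higher, RPC25 and RRN3, both lie in the chromosome XI stretch. Of 36 translation factors 11 were lower and none higher, 3 to 7 lower without each array and 24 without that array. The eIF1A gene TIF11 fell by 0.42 and SUI2, a subunit of eIF2, by 0.46. Of 54 mitochondrial ribosomal protein genes 13 were lower (2 to 13 without each array), with MRPL1 down by 0.27, and the 1 that was higher, MRPL31, lies in the stretch and was not called without NC replicate 3 or AAC replicate 2. Of 39 proteasome genes 2 were higher (1 with the replicate block), beside 9.42% of all probe sets, and the subunit gene RPT1 also lies in the stretch. Histone and replication genes had 8 of 28 lower (1 to 6 without each array, 5 with the replicate block, 13 without that array), the helicase gene MCM5 by 0.22.

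Purine synthesis had 8 of 26 genes lower (1 to 6 without each array, 14 with the array labelled AAP aerobic replicate 3 left out) and 2 higher, and ADE4, its first enzyme, fell by 0.46 (adjusted p 0.0184), a call kept among the 6 removals only without AAC replicate 2. In pyrimidine synthesis and uptake 7 of 16 were lower (4 to 5 without each array) and 2 higher, with the nucleosidase URH1 and the minor isozyme gene URA10 higher by 0.49 and 0.65. Of 27 methionine and sulfate genes 12 were higher and 1 lower (none lower with the replicate block, 4 with the array labelled AAP aerobic replicate 3 left out). Without each of the 6 arrays 5 to 10 were higher, with 5 without AAC replicate 3, and none was lower. The adenylylsulfate kinase MET14 read 7.53, 7.50 and 7.55 in NC and 8.49, 8.29 and 8.43 in AAC (1.84-fold, adjusted p 0.00466), and MET3, the preceding enzyme, rose 1.55-fold. Of 32 genes of branched-chain, histidine and aromatic amino acids 2 were higher and 4 lower, and 23 differences were negative (median -0.12). Without each of the 6 arrays 2 were higher and 1 to 2 lower. Those higher were BAT2, the cytosolic branched-chain aminotransferase (1.88-fold), and ARO9, of aromatic amino acid breakdown (1.53-fold).

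Among 23 biotin and thiamine genes, a list that includes vitamin B6 genes, 7 were higher and 1 lower. SNZ1 and SNO1, a divergent pair of vitamin B6 synthesis, rose together, 2.77-fold and 2.20-fold, and the thiamine gene THI13 rose 1.56-fold. Of 21 zinc-responsive genes 3 were higher and 3 lower, beside 9.42% and 9.99% of all probe sets (5 lower with the array labelled AAP aerobic replicate 3 left out). Sterol synthesis, in contrast to the sterol-binding HES1, had 1 of 25 lower (none with the replicate block) and none higher. ERG11 and ERG3, enzymes of the pathway, differed by -0.16 and -0.03 and were not called. Of 25 genes of sterol transport, esters and regulators 3 were higher, HES1 among them, and 1 was lower. KES1 and OSH6, other oxysterol-binding genes, differed by -0.13 and 0.16 and were not called (adjusted p 0.450 and 0.0737). A further one, SWH1, was called with all arrays, but not without NC replicate 3 or AAC replicate 3.

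Cell wall genes were higher in 11 of 46 (6 to 10 without each array) and lower in 3 (1 with the replicate block, 7 with the array labelled AAP aerobic replicate 3 left out). GSC2 read 7.54, 7.62 and 7.46 in NC and 9.26, 9.19 and 9.75 in AAC (adjusted p 0.00269), while FKS1, the main glucan synthase gene, differed by -0.08 and was not called. The mannoprotein TIP1 rose 1.80-fold, PIR3 1.50-fold, the glucan-chitin linking enzyme CRH1 1.33-fold and the chitin synthase CHS1 1.32-fold. PIR3 was not called without NC replicate 1 or AAC replicate 1. Apart from FKS1 the groups did not overlap for any of these genes, which held for 51.7% of all probe sets.

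In gene order, 1 long stretch had higher values in AAC throughout. The longest unbroken run of genes with a positive difference held 29 measured genes on the left arm of chromosome XI, from GPM1 to VPH2. It was found by looking at these differences, so its aerobic values are a description. No other positive run passed 8 genes, and no negative run 15. In the run 27 of 29 genes were called higher, against 9.42% of all probe sets. The AAC arrays lay above all NC arrays for 28, against 20.6% of all probe sets. The median difference was 0.75, or 1.68-fold, and single genes ran from 0.14 for RMA1 to 1.12 for MRP8.

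To the left, the nearest measured gene, which encodes a subunit of the signal recognition particle receptor, differed by -0.16 and the next, RSM22 and RPS27A, by -0.14 and -0.42, against 0.44 for GPM1. On the right VPH2 differed by 0.92 and the next genes, SBA1, PRR1 and APN1, by -0.17, -0.13 and -0.07. The 20 measured genes on either side had medians of -0.05 and -0.01, and the 264 other genes of the chromosome one of -0.02. The run's genes have varied roles and include MCR1, a mitochondrial reductase (0.97), MYO3, a type I myosin (1.09), YPK1, a protein kinase (1.01), TGL1, a steryl ester hydrolase (0.83), and CTK1, a kinase of RNA polymerase II (0.52).

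The anaerobic arrays were not used to choose the run. On the 3 AAC anaerobic arrays the run's median stood 0.68, 0.67 and 0.61 above the NC anaerobic mean, and 24 of its 29 genes were called higher in the anaerobic comparison, against 6.71% of all probe sets. All 29 differences were positive there, from 0.30 to 1.28. Without each anaerobic array in turn 17 to 24 were called, the fewest without NC anaerobic replicate 2. AAP read near NC: the medians were within 0.05 of 0 on AAP aerobic replicates 1 and 2 and on the 3 AAP anaerobic arrays. The array labelled AAP aerobic replicate 3 read 0.73, close to the AAC aerobic arrays at 0.75 to 0.76. The copy number of the stretch was not measured.

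**Figure D3:**
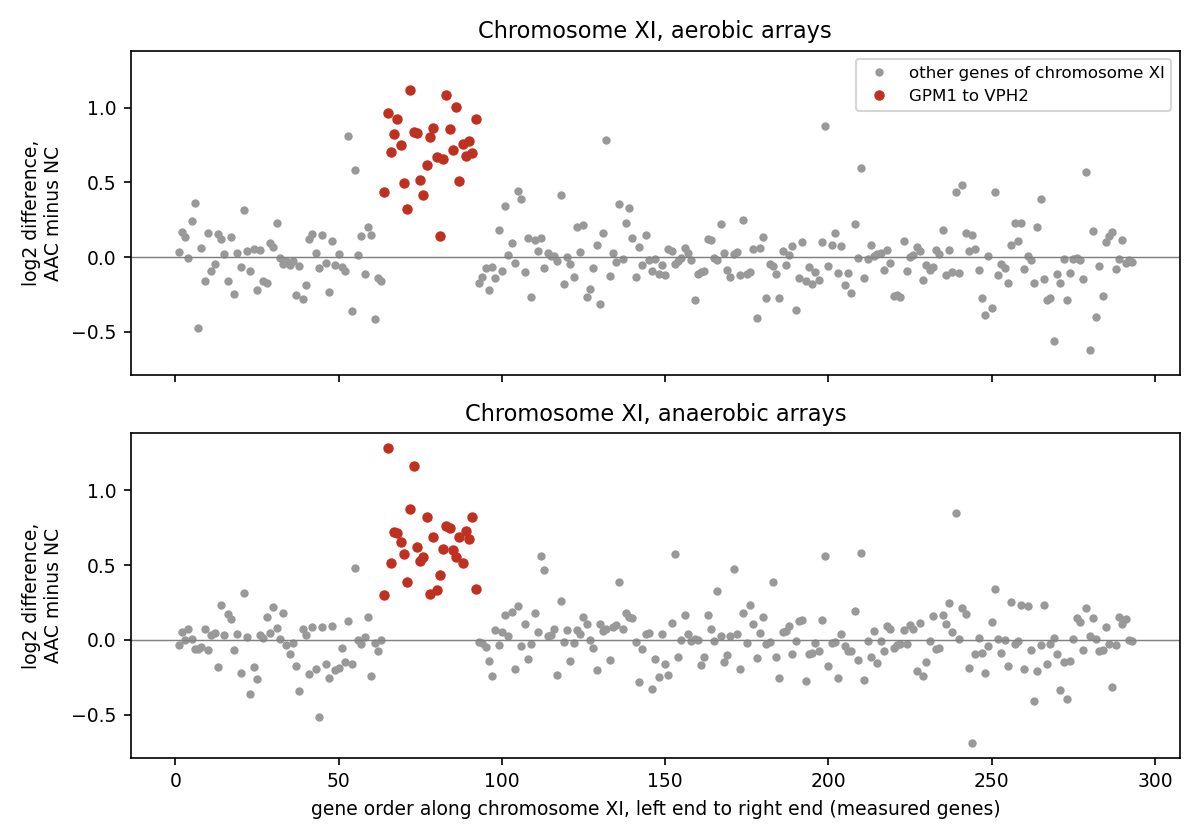
Log2 difference between AAC and NC (vertical axis) for each measured gene of chromosome XI in gene order (horizontal axis), in aerobic (upper panel) and anaerobic culture (lower panel). The 29 genes from GPM1 to VPH2, in red, lie above 0 in both panels, with medians of 0.75 and 0.62, while the other genes scatter around 0.

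**Figure D4:**
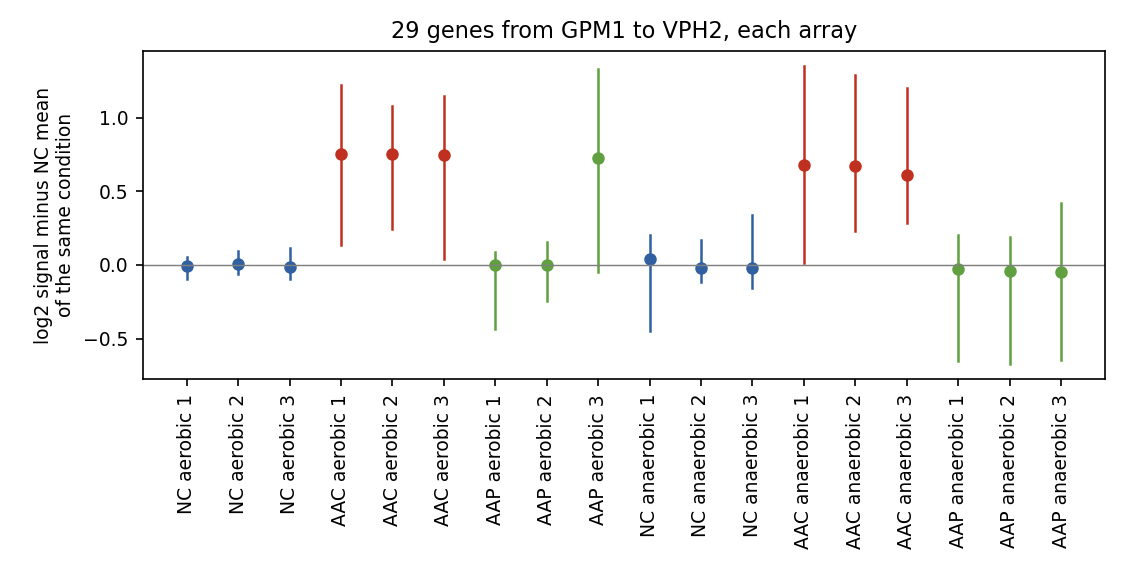
Median (point) and range (line) over the 29 genes from GPM1 to VPH2 of the log2 signal minus the NC mean of the same condition, for each of the 18 arrays. The 6 AAC arrays and the array labelled AAP aerobic replicate 3 lie between 0.61 and 0.76, and the other 11 between -0.05 and 0.04.

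The same strains were compared without air on 6 other arrays. There 369 probe sets were higher in AAC (6.71%) and 291 lower (5.29%). For 158 probe sets (2.87%) the strain difference itself depended on air, 66 more positive (1.20%) and 92 more negative (1.67%) in aerobic culture. The number was 667 with the array labelled AAP aerobic replicate 3 left out. HSP12, YGP1, GPD1 and DDR48 rose in both, by 1.24, 1.64, 0.84 and 1.15 without air, and none of these 4 differed between conditions beyond the threshold.

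HES1, PHO84 and TMA10, a ribosome-associated protein, were higher in AAC with air and not called without it, where they differed by -0.27, -0.75 and -0.48 (adjusted p for the dependence on air 0.0311, 0.00690 and 0.00358). VHT1, the biotin transporter, and BIO3, of biotin synthesis, fell by 2.03 and 1.52 without air and differed by -0.26 and 0.20 with it, neither called. HES1 was high in both strains without air, at 9.66 to 10.01 in NC and 9.52 to 9.64 in AAC. DAK2 was lower in AAC in both conditions, at least 3.69-fold with air and at least 5.30-fold without, and since AAC was under the background level in both, the difference between conditions was not read. In the other direction ULI1 rose by 0.74 with air and 2.31 without (adjusted p 0.000107), and SAG1, the alpha-agglutinin, ELO1, a fatty acid elongase, and YOR302W, the leader peptide of CPA1, rose only in the anaerobic comparison, by 1.15, 1.01 and 1.12. The zinc transporter ZRT2 differed by -0.41 with air, not called, and rose by 0.70 without.

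By list, the share that depended on air is read against 2.87% of all probe sets. Of the phosphate targets 1 was higher without air, against 12 with it, and 4 of the 20 depended on air by the test. Of the cytosolic ribosomal protein genes 2 were lower without air, against 59 with it, and 11 of 128 depended on air. Of the ribosome biogenesis genes 3 were lower without air, against 67 with it, and 2 of 120 depended on air. The latter share is under that of all probe sets, so no dependence on air is read from the test for that list. The medians of the lists were 0.01 and -0.04 without air, against -0.17 and -0.30 with it, a difference that was not tested. Respiratory chain genes were higher in 15 of 23 without air, and 5 depended on it.

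**Figure D5:**
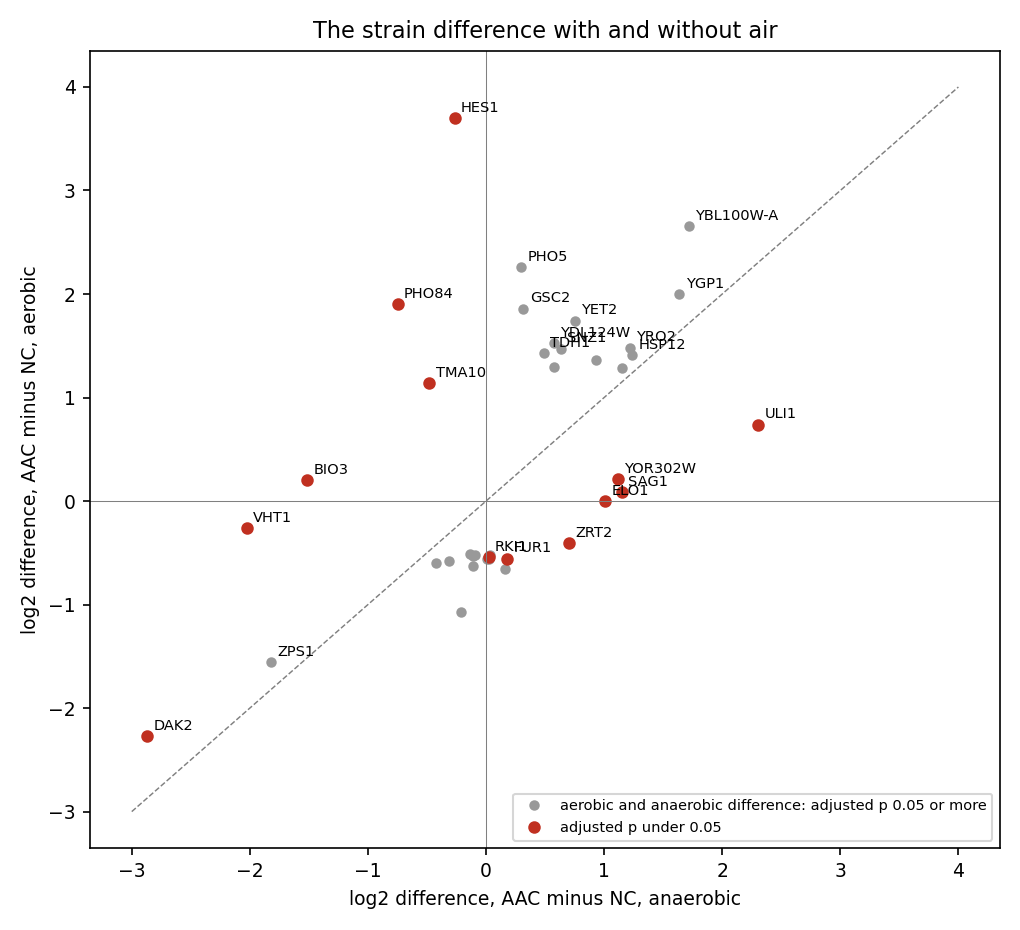
Log2 difference between AAC and NC in aerobic (vertical axis) against anaerobic culture (horizontal axis) for the 30 largest aerobic changes and the 10 largest differences between conditions. Red points passed the test of the difference between conditions, and the dashed line marks equal values. HES1 lies at 3.70 with air and -0.27 without, and DAK2 is low in both, with AAC under the background level.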

How the data were processed

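RNA of 18 cultures was hybridised to Affymetrix Yeast Genome 2.0 arrays, 1 array per culture. The deposited values were log2 signals that the authors made with PLIER in R 2.10.1, per the submitters' processing notes, with background correction, normalization and log base not given in the sources used here. The log2 scale was read from their range (4.85 to 12.8). Values were used as deposited, with 0 columns left out.

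Probe sets with 1 S. cerevisiae gene were kept (5498 of 10928), 128 of them shared by similar genes. Gene names and order came from RefSeq (R64), with no coordinates used. limma 3.58.1 (R 4.3.3) fitted 6 groups (12 residual and 3.10 prior degrees of freedom), with eBayes and Benjamini-Hochberg adjustment over all probe sets for each contrast, and was tested on simulated data. With 3 arrays against 3 an exact permutation test cannot go below 0.1, and the number of arrays limits the precision. p-values measure the spread between arrays that the labels call biological replicates.

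Named genes were the 15 largest rises and 15 largest falls among called probe sets whose groups do not overlap, up to 4 members of each list by p, the plasmid and host list, the 5 largest differences each way between conditions, and members of lists of up to 50 genes where their role is described. KRR1, RPP1 and genes in or beside the chromosome XI stretch, DAK2's neighbours included, were chosen after their values were seen. The comparison, the 53 gene lists and the tests were chosen with earlier results of these data known. Where a gene in a list had several probe sets, the brightest was used.

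Deviations of same-numbered NC and AAC aerobic arrays from their group means correlated at 0.126, 0.233 and 0.326, each above 0.1. The replicate number was therefore also fitted as a block. Differently numbered aerobic pairs ran from -0.32 to 0.09. The pairing comes from the data alone. In anaerobic culture the same-numbered correlations were 0.645, -0.02 and 0.459, and differently numbered pairs ran from -0.57 to 0.324. The other alternatives were other sets of arrays, normalizations, a filter on dim probe sets, limma's trend, array weights and a length trend. Promoter sequences were not analysed here.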

Additional observations from a re-analysis of the deposited data

Results flagged for a closer look

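For 38 of 284 named genes the difference between AAC and NC itself differed between aerobic and anaerobic culture (adjusted p under 0.05 in limma). Over all probe sets the share was 2.87%. The 5 largest differences each way were named because they passed this same test, and many others for their aerobic difference. The count of 38 therefore does not measure how common such a dependence is. DAK2, whose AAC level was under the background in both conditions, is not counted. Values are the aerobic minus the anaerobic log2 difference. The larger positive ones were 3.97 for HES1, 2.65 for PHO84, 1.77 for VHT1, 1.72 for BIO3, 1.62 for TMA10, 1.46 for the wall gene DAN4 and 1.22 for HXK1. GLK1 had 0.91, ALD4, an acetaldehyde dehydrogenase, 0.92, VTC3 0.84, GLC3 0.78 and CAR2, of arginine breakdown, 0.75. Smaller ones were PRB1 with 0.48, PHM7 with 0.40, TPS2 with 0.39 and PFK26 with 0.34.

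The negative ones were led by ULI1 with -1.57, ZRT2 with -1.11, SAG1 with -1.06, ELO1 with -1.01 and YOR302W with -0.91. PHO3 had -0.83, CPA1 -0.82, FUR1 -0.74, HXT1 -0.68, RKI1 -0.57, TIF11 -0.51, STE2 -0.50 and MFA2 -0.48. IMP4, HIS6, RPL17B, RRP14 and GCD14 had -0.42, -0.42, -0.41, -0.37 and -0.36. CLB5, SUI3, RMA1 and RPL26A had -0.33, -0.31, -0.30 and -0.24.

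Probe sets outside the comparison that were called, at least 2-fold higher in AAC and above the background are given here. The S. pombe tpi1 probe set was 2.99 higher in AAC on the log2 scale (adjusted p 0.0107). Probe sets with no gene name were higher by 1.27, 1.26 and 1.49, and control probe sets for TDH1 by 1.34, 1.30 and 1.53, beside 1.43 for the TDH1 gene itself and 0.18 for another TDH1 control (adjusted p 0.0131). A pair of reporter control probe sets were higher by 1.62 and 1.15, another by 0.50, and the remaining pair differed by -0.10 and 0.07 and were not called. In all, 6 of 1746 S. pombe probe sets (0.344%) and 59 of 3683 with no gene (1.6%) were called.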

How the results depend on the processing

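The 1067 aerobic calls (518 higher, 549 lower) became 1650 (714, 936) without the array labelled AAP aerobic replicate 3, 2079 (841, 1238) with only the groups compared, and 2645 (1128, 1517) with array weights. Pairing by number gave 871 (447, 424) with the replicate block, and 2080 (839, 1241) with the block and only the groups compared. The calls of at least 2-fold numbered 39 (36 and 3). Leaving out each array gave 554 to 746 (297 to 394 higher, 195 to 352 lower), from 554 without NC replicate 1 to 746 without AAC replicate 2. The 660 anaerobic calls became 1069 without the array labelled AAP aerobic replicate 3, 2611 with array weights, 1008 with the block and the length trend removed, and 326 to 1040 without each array (326, 387, 360, 391 and 1040 without NC 2, NC 3, AAC 1, AAC 2 and NC 1). The 158 calls that depended on air became 667 without the array labelled AAP aerobic replicate 3, 582 with only the groups compared, 2103 with array weights, 759 with the block and only those groups, and 61 to 233 without each array. Of 212 named genes called, 12 lost the call with the block and 77 without at least 1 NC or AAC aerobic array, and none reversed. Of 106 list counts, 69 moved by over 1.5 times with array weights and 24 to 43 without each of those arrays. The counts for the chromosome XI stretch, chosen after seeing the data, were 25 to 29 aerobic and 17 to 29 anaerobic over all settings. The cause of these changes was not tested. Signals under the background level gave bounds only.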
